A study of Caenorhabditis elegans with 11 samples.

Results

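The genes described here make acetylcholine, load it into vesicles or release synaptic vesicles in Caenorhabditis elegans. They are 10 in number and were taken by name from the 47084 genes listed in each file: unc-17, cha-1 and cho-1 of the cholinergic pathway, and unc-13, unc-18, unc-64, ric-4, snb-1, snt-1 and unc-10 of the release machinery. All 10 had enough counts to enter the test, which covered 14361 genes.

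Acetylcholine is the main excitatory transmitter of the worm's motor neurons. CHA-1, choline acetyltransferase, makes it in the terminal, UNC-17, the vesicular acetylcholine transporter, loads it into vesicles, and CHO-1 takes choline back up after release. Release itself rests on the SNARE proteins, in which synaptobrevin (SNB-1) on the vesicle pairs with syntaxin (UNC-64) and SNAP-25 (RIC-4) on the plasma membrane. UNC-18 binds syntaxin, UNC-13 primes vesicles for fusion, UNC-10 is the RIM scaffold of the active zone, and SNT-1, synaptotagmin, senses calcium. The SNARE machinery serves every class of synapse, whereas unc-17, cha-1 and cho-1 mark the cholinergic ones.

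RNA came from whole worms on day 1 of adulthood, about 1000 per library, grown at 20 °C on OP50 bacteria. The 2KR line carried the daf-16(mu86) deletion and the integrated array iqIs85, in which the daf-16 promoter drives GFP-tagged DAF-16 with 2 lysines replaced by arginine. The WT line carried the same deletion and the array iqIs79, with the unaltered protein, and both arrays also held the pRF4 plasmid with the rol-6 marker. N2 is the wild-type laboratory strain with neither the deletion nor an array. There were 3 libraries of 2KR, 3 of WT and 2 of N2, and each transgene was represented by 1 line, so the substitutions cannot be told apart from other differences between the lines. DAF-16 is the FOXO factor of insulin signalling, and the design asks what its substituted lysines change in the adult transcriptome. The libraries of a further line, 4KR, were left out, because counts and gene names are out of step in their tables. The labels speak of biological repeats without saying how the cultures were separated, so the p-values measure the spread between these libraries.

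The 8 libraries held between 21947014 and 30810301 counts each. The rol-6 marker had 3745 to 4469 counts in 2KR libraries, 1569 to 1951 in WT libraries and 2 and 3 in N2 libraries. Its presence in the array lines and near absence in N2 are as the labels would have it. It was also higher in 2KR than in WT without overlap, by a log2 fold change of 1.15 ± 0.11 SE (edgeR quasi-likelihood test, adjusted p = 0.00179). The daf-16 gene itself stood at 214 to 289 CPM in 2KR libraries, 400 to 452 CPM in WT libraries and 145 to 160 CPM in N2 libraries, so its level differed between the lines without overlap. Whole worms hold muscle, gut, skin and a large germline beside the nervous system, and markers of all these tissues were counted. Some markers were at or near 0. In the glia list mir-228 had 0 counts in every library, delm-1 at most 1 and hlh-17 at most 3. In the embryo list med-1 had at most 3 and med-2 at most 2. Of the glia list 7 of 11 genes were tested, and of the pharynx list 6 of 9. In such bulk samples, fewer cells of a type and less RNA per cell cannot be told apart.

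Levels of the 10 genes differed widely. Per kilobase of exon, and in CPM, counts scaled by TMM to a common library size, snb-1 stood highest at 172 ± 7.91 (SD over 8 libraries of all 3 groups), above 95.4% of the tested genes. The syntaxin-binding gene unc-18 followed at 20.5 ± 0.960 CPM per kilobase. The other SNARE genes ric-4 and unc-64 stood at 6.43 ± 1.43 and 5.62 ± 0.243 CPM per kilobase, so snb-1 was far above its SNARE partners in every library. Below them came snt-1 at 1.94 ± 0.484, unc-13 at 1.34 ± 0.249 and unc-10 at 1.13 ± 0.161 CPM per kilobase. The cholinergic genes were lowest, unc-17 at 0.693 ± 0.257, cha-1 at 0.571 ± 0.108 and cho-1 at 0.421 ± 0.131 CPM per kilobase, and cho-1 was above 8.96% of the tested genes. Within N2 alone the order of the cholinergic genes was another, cha-1 at 0.484 ± 0.0463, cho-1 at 0.402 ± 0.233 and unc-17 at 0.322 ± 0.0946 CPM per kilobase (mean and SD of 2 libraries), and the cho-1 values spanned those of the other genes.

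Some neighbours changed places between libraries. The level per kilobase of ric-4 was above that of unc-64 in 6 of 8 libraries, and that of unc-17 above cha-1 in 6 of 8. In both cases the 2 exceptions were the 2 N2 libraries, so the order of these pairs followed the groups. The level of unc-13 was above that of unc-10 in 6 of 8 libraries, the exceptions being 2KR replicate 1 and N2 replicate 1, and that of cha-1 above cho-1 in 7 of 8, the exception being N2 replicate 2. The gaps from snb-1 to unc-18, from unc-18 to ric-4, from unc-64 to snt-1, from snt-1 to unc-13 and from unc-10 to unc-17 had the same sign in 8 of 8 libraries. Taking the longest transcript in place of all exons gave the same order.

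**Figure D1:**
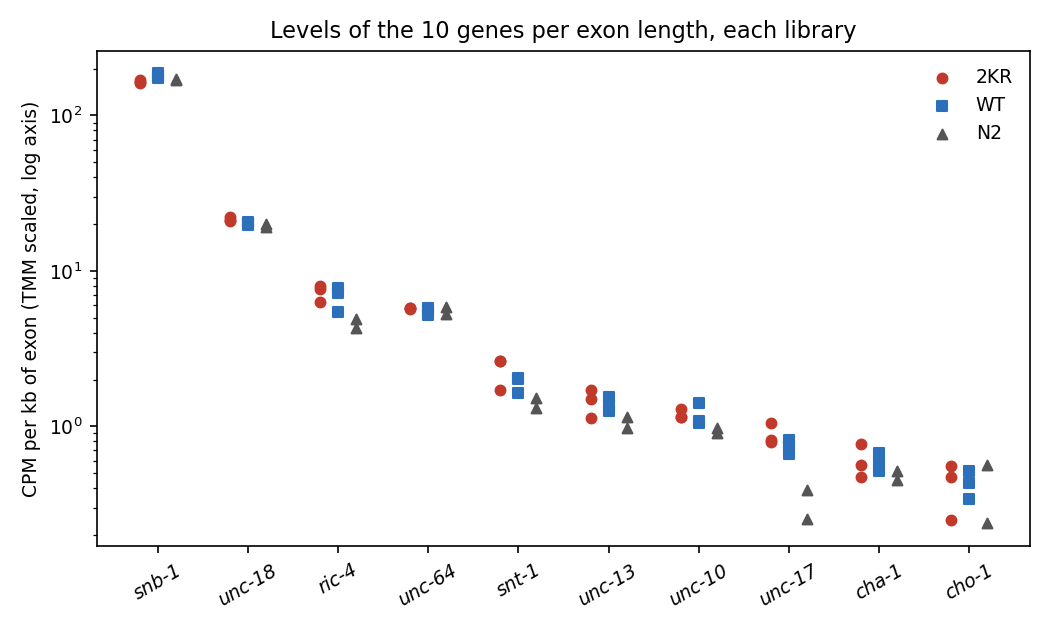
Level of each gene per kilobase of exon (TMM-scaled CPM per kilobase, log axis) in 2KR (red circles), WT (blue squares) and N2 (grey triangles) libraries, 1 point per library. snb-1 stands highest at a mean of 172 and the 3 cholinergic genes lowest, and the N2 points of unc-17 and ric-4 lie below those of the other groups.

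The cholinergic locus holds the clearest difference among the 10 genes. The unc-17 transcript, for the transporter that fills vesicles with acetylcholine, rose in both transgenic lines relative to N2, 2.77-fold in 2KR and 2.32-fold in WT. Its partner cha-1, transcribed from the same place, did not pass the test in either line. Nor did cho-1, the choline transporter gene on the same chromosome.

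The locus lies on chromosome IV of the WBcel235 assembly on the minus strand, with unc-17 (WBGene00006756) at 3618259 to 3624699 and cha-1 (WBGene00000481) at 3613931 to 3624697. The Ensembl annotation gives unc-17 4 exons and cha-1 11. Their first exons share 66 bases, which are 3.43% of the exon length of unc-17, and the remaining unc-17 exons all lie within the first intron of cha-1. Reads that lie wholly within the shared bases cannot be assigned to either gene, while the other exons of each gene are not exons of the other. How reads that cross from the shared exon into a later one were counted is not known. Reads of unspliced cha-1 RNA within that intron could not be told apart from reads of unc-17, and their share was not tested.

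In libraries of 2KR, unc-17 had 48, 42 and 57 counts, or 1.57, 1.53 and 2.02 CPM. In libraries of WT it had 39, 34 and 45 counts, or 1.44, 1.27 and 1.58 CPM. In libraries of N2 it had 16 and 11 counts, or 0.748 and 0.491 CPM. Every library of both transgenic lines was above both N2 libraries, while 2KR and WT overlapped. The log2 fold change of 2KR over N2 was 1.47 ± 0.29 SE (edgeR quasi-likelihood test, Benjamini-Hochberg adjusted p = 0.0151), and that of WT over N2 was 1.21 ± 0.29 SE (edgeR adjusted p = 0.0483). The 2 comparisons share the N2 libraries. The column headers carry codes whose meaning is not stated, and N2 replicate 2 has the code of replicate 3 of the lines. Between libraries of the same code, the log2 ratio of 2KR to N2 was 1.00 in the pair coded 1 and 1.89 in the pair coded 6-6, and that of WT to N2 was 0.88 and 1.55 in the same order.

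The call in WT rested on all 8 libraries. It was lost without any 1 of the 8 libraries, with edgeR adjusted p from 0.0523 (without 2KR replicate 3) to 0.308 (without N2 replicate 2), with DESeq2 (adjusted p = 0.108), and where only the groups compared were fitted (edgeR adjusted p = 0.0714). The call in 2KR was lost without N2 replicate 1 (edgeR adjusted p = 0.0744) or N2 replicate 2 (0.142) and passed without any other single library.

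The gene for choline acetyltransferase, cha-1, had 30, 32 and 45 counts (0.980, 1.17 and 1.60 CPM) in 2KR libraries, 29, 33 and 40 (1.07, 1.24 and 1.40 CPM) in WT libraries and 20 and 24 (0.935 and 1.07 CPM) in N2 libraries. The groups overlapped in CPM. Its log2 fold change was 0.31 ± 0.29 SE in 2KR against N2 (95% interval -0.32 to 0.95) and 0.30 ± 0.29 SE in WT against N2 (-0.34 to 0.94). Both intervals reach above the lower end of those of unc-17, 0.83 in 2KR and 0.56 in WT, and the difference between the genes was not tested.

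The count ratio of unc-17 to cha-1, taken within a library, does not depend on how libraries are scaled. It was 1.60, 1.31 and 1.27 in 2KR libraries, 1.34, 1.03 and 1.13 in WT libraries and 0.800 and 0.458 in N2 libraries. The means were 1.39 ± 0.181 in 2KR (SD, n = 3), 1.17 ± 0.161 in WT (SD, n = 3) and 0.629 ± 0.242 in N2 (SD, n = 2). More unc-17 than cha-1 was thus counted in each transgenic library, and less in each N2 library. The 95% exact binomial intervals of single libraries are wide, 0.388 to 1.62 for N2 replicate 1 and 0.993 to 2.62 for 2KR replicate 1, and they cover counting error only.

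**Figure D2:**
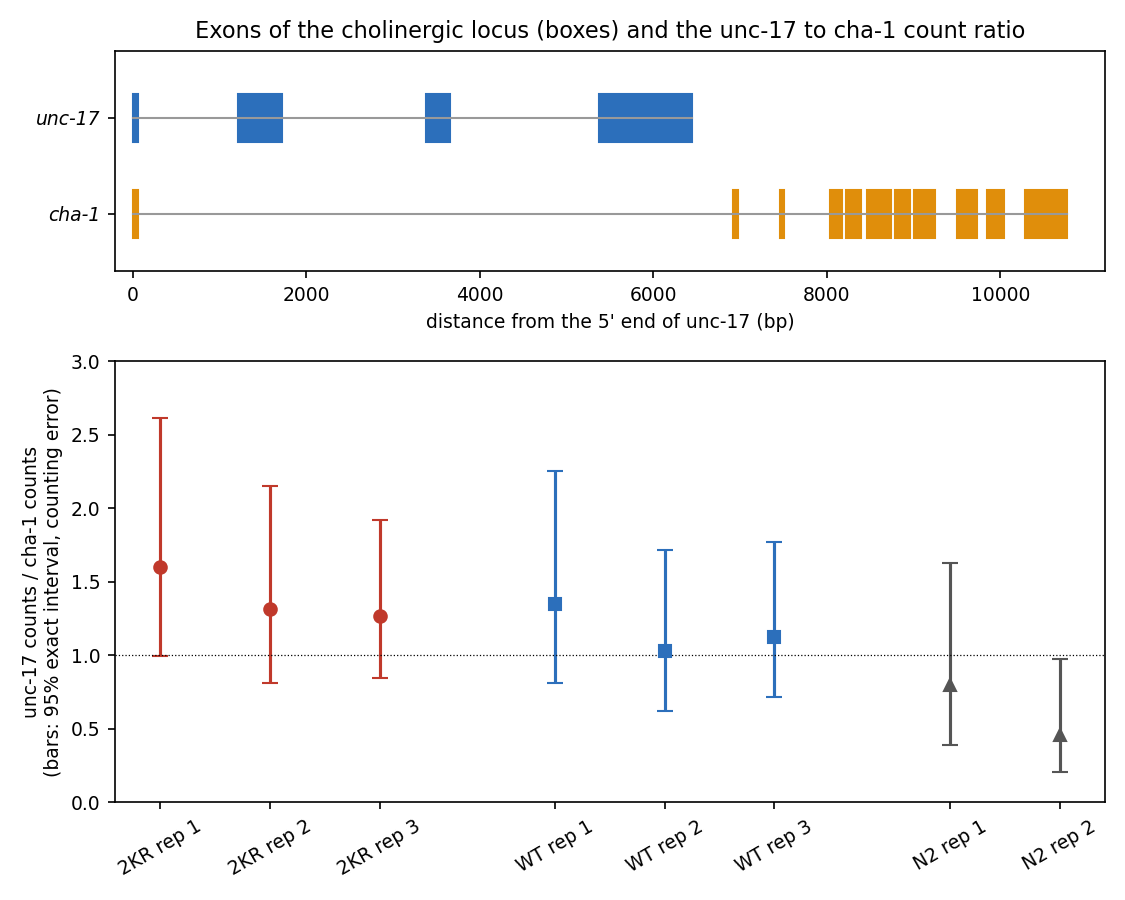
Top, exons (boxes) of unc-17 and cha-1 by distance in bases from the 5′ end of unc-17; bottom, count ratio of unc-17 to cha-1 in each 2KR, WT and N2 library with its 95% exact interval for counting error. The genes share their first exon, and the ratio is above 1 in the 6 transgenic libraries and below 1 in both N2 libraries.

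The choline transporter gene cho-1 (WBGene00000501, chromosome IV 13209730 to 13214566) had the fewest counts. It had 15, 30 and 26 counts in 2KR libraries, 23, 27 and 19 in WT libraries and 10 and 25 in N2 libraries. In CPM the N2 libraries, at 0.467 and 1.11, were the lowest and the highest of all 8. The 95% interval of the fold was 0.530 to 2.06 for 2KR against N2, so it leaves room for a change of nearly 2-fold in either direction.

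Among the SNARE genes, ric-4 rose in 2KR relative to N2, while unc-64 and snb-1 passed no test. The gene for SNAP-25, ric-4 (WBGene00004364, chromosome V 10261131 to 10270314), stood at 7.77, 9.50 and 9.91 CPM in 2KR libraries, at 6.75, 9.56 and 8.95 CPM in WT libraries and at 5.28 and 6.07 CPM in N2 libraries. All 6 transgenic libraries were above both N2 libraries. The log2 fold change was 0.67 ± 0.18 SE in 2KR against N2, a fold of 1.59 (edgeR adjusted p = 0.0460), and 0.57 ± 0.18 SE in WT against N2, a fold of 1.48 that did not pass (edgeR adjusted p = 0.113). In pairs of the same header code, the log2 ratio of 2KR to N2 was 0.55 and 0.70, and that of WT to N2 was 0.35 and 0.56. The call in 2KR was lost without N2 replicate 1 (edgeR adjusted p = 0.305), N2 replicate 2 (0.148), WT replicate 3 (0.0663), 2KR replicate 2 (0.104) or 2KR replicate 3 (0.114). In WT, ric-4 passed without WT replicate 1 (0.0471).

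Syntaxin and synaptobrevin were measured with far smaller error and differed little. The syntaxin gene unc-64 (WBGene00006798, chromosome III 13277258 to 13283887) stood at 14.8, 14.5 and 14.7 CPM in 2KR libraries, at 13.3, 14.5 and 14.8 CPM in WT libraries and at 13.6 and 15.03 CPM in N2 libraries. The 3 groups overlapped, and the 95% interval of the fold was 0.891 to 1.19 for 2KR against N2 and 0.861 to 1.15 for WT against N2. Its 3′ end shares 64 exonic bases with set-25 on the opposite strand, and how strand was used in the counting is not known.

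The synaptobrevin gene snb-1 (WBGene00004897, chromosome V 6655562 to 6656501) had 135.7, 130.8 and 132.6 CPM in 2KR libraries, 150.7, 144.0 and 139.5 CPM in WT libraries and 137.2 and 137.8 CPM in N2 libraries. Here 2KR was below both other groups in every library, by small amounts. The log2 fold change of 2KR over WT was -0.12 ± 0.05 SE, with an unadjusted p of 0.0228 in the edgeR fit and an adjusted p of 0.614, so it did not pass. Against N2 the log2 fold change was -0.05 ± 0.05 SE in 2KR and 0.07 ± 0.05 SE in WT, and neither passed (edgeR adjusted p = 0.581 and 0.477).

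Of the proteins that prepare vesicles for fusion, none passed the test at the transcript level, although most leaned upward against N2. For unc-18 (WBGene00006757, chromosome X 7682896 to 7686037) the CPM was 55.5, 59.1 and 56.9 in 2KR libraries, 53.97, 55.2 and 52.4 in WT libraries and 51.1 and 53.5 in N2 libraries. The 2KR libraries were above all others, by a log2 fold change of 0.09 ± 0.05 SE over WT and 0.13 ± 0.06 SE over N2 (edgeR adjusted p = 0.878 and 0.212). The 95% interval of the fold of 2KR over N2, 0.998 to 1.20, leaves room for a small difference only.

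The priming gene unc-13 (WBGene00006752, chromosome I 7422785 to 7454116) had 7.77, 11.8 and 10.4 CPM in 2KR libraries, 8.63, 10.6 and 9.44 CPM in WT libraries and 6.73 and 7.94 CPM in N2 libraries. The WT libraries were all above N2, while 2KR replicate 1 fell between the N2 values. The log2 fold change was 0.44 ± 0.18 SE in 2KR against N2 and 0.38 ± 0.18 SE in WT against N2 (edgeR adjusted p = 0.161 and 0.287). Without 2KR replicate 1, unc-13 passed in 2KR (0.61, edgeR adjusted p = 0.0443).

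The RIM gene unc-10 (WBGene00006750, chromosome X 7272317 to 7280322) had 5.68, 6.39 and 5.65 CPM in 2KR libraries, 5.23, 6.97 and 5.34 CPM in WT libraries and 4.86 and 4.50 CPM in N2 libraries. Both transgenic lines lay above N2 without overlap, by 0.34 ± 0.16 SE in 2KR and 0.32 ± 0.16 SE in WT on the log2 scale (edgeR adjusted p = 0.228 and 0.317).

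The calcium sensor gene snt-1 (WBGene00004921, chromosome II 6810963 to 6816433) had 3.30, 5.04 and 5.04 CPM in 2KR libraries, 3.13, 3.94 and 3.86 CPM in WT libraries and 2.94 and 2.54 CPM in N2 libraries. Again no transgenic library was as low as N2. Its log2 fold change in 2KR against N2, 0.70 ± 0.22 SE, was as large as that of ric-4, but its larger error left it short of the threshold (edgeR adjusted p = 0.0874). In WT against N2 it was 0.41 ± 0.23 SE (edgeR adjusted p = 0.362). Without 2KR replicate 1 the 2KR value was 0.89 (edgeR adjusted p = 0.0293).

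**Figure D3:**
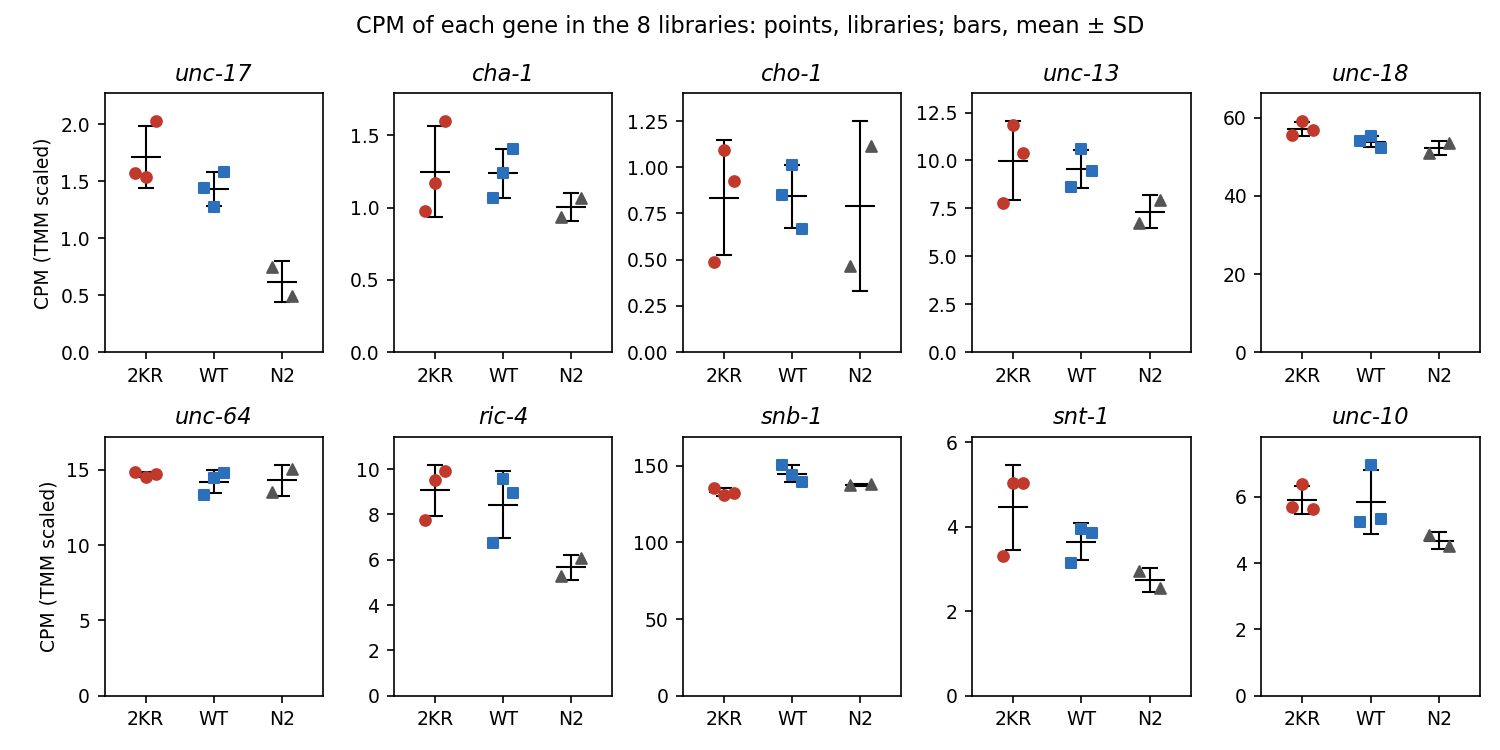
TMM-scaled CPM of each gene in 2KR, WT and N2 libraries (points, in replicate order from left to right), with the mean and SD of each group as bars; each panel has its own axis from 0. The N2 points lie below all others for unc-17, ric-4, snt-1 and unc-10, whereas unc-64 and cho-1 overlap in all groups.

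The 2KR and WT lines differ in the lysines of DAF-16. They also differ in the levels of daf-16 (lower in every 2KR library) and rol-6 (higher in every 2KR library), so that these cannot be told apart. In the comparison of 2KR with WT, 0 of the 10 genes passed the edgeR test, against 0.244% of all genes tested, or 35 genes (0.0766% higher and 0.167% lower). At an unadjusted p under 0.05 there was 1, snb-1, against 6.58% of all genes tested, and DESeq2 also called 0. With the replicate number as a block, which pairs the libraries of these lines, 221 genes passed in all and still 0 of the 10. The 2KR libraries were all above WT for unc-18 and all below WT for snb-1, where 5.12% and 5.11% of all genes tested did not overlap in these directions. The log2 fold change was positive for 8 of the 10, against 48.3% of all genes tested. Its median over the 10 was 0.06, beside -0.0041 over all genes tested.

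The precision of this comparison depended on the gene. The 95% interval of the fold of 2KR over WT was 0.857 to 0.986 for snb-1, 0.979 to 1.15 for unc-18 and 0.912 to 1.17 for unc-64. It was 0.855 to 1.67 for unc-17, 0.914 to 1.63 for snt-1, 0.855 to 1.35 for ric-4, 0.823 to 1.32 for unc-13 and 0.817 to 1.25 for unc-10. For cha-1 it was 0.695 to 1.46 and for cho-1 0.554 to 1.76, the widest of the 10.

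Against N2, the question is what the deletion with its transgene changes. In 2KR 2 of the 10 genes rose, unc-17 and ric-4, and 0 fell, while 3.76% of all genes tested rose and 4% fell (7.76% in all). In WT 1 rose, unc-17, and 0 fell, while 1.86% of all genes tested rose and 2.21% fell (4.07% in all). At an unadjusted p under 0.05 there were 4 of the 10 in 2KR and 2 in WT, where 25% and 19.1% of all genes tested stood. Libraries of 2KR were all above N2 for 5 of the 10 genes and all below for 1, against 21.8% and 21.9% of all genes tested. Libraries of WT were all above N2 for 6 of the 10, against 20.4% of all genes tested, and all below for 0, against 19.2%.

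The 10 genes leaned upward against N2, 9 of 10 in each line, with snb-1 negative in 2KR and unc-64 negative in WT. Of all genes tested, 51.1% had a positive log2 fold change in 2KR and 51.6% in WT. The median log2 fold change was 0.32 in 2KR and 0.31 in WT, beside 0.0074 and 0.0071 over all genes tested. The lean was not uniform. In 2KR, snb-1, unc-18, unc-64 and cho-1 had log2 fold changes from -0.05 to 0.13, cha-1 had 0.31, and unc-17, snt-1, ric-4, unc-13 and unc-10 had 0.34 to 1.47.

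**Figure D4:**
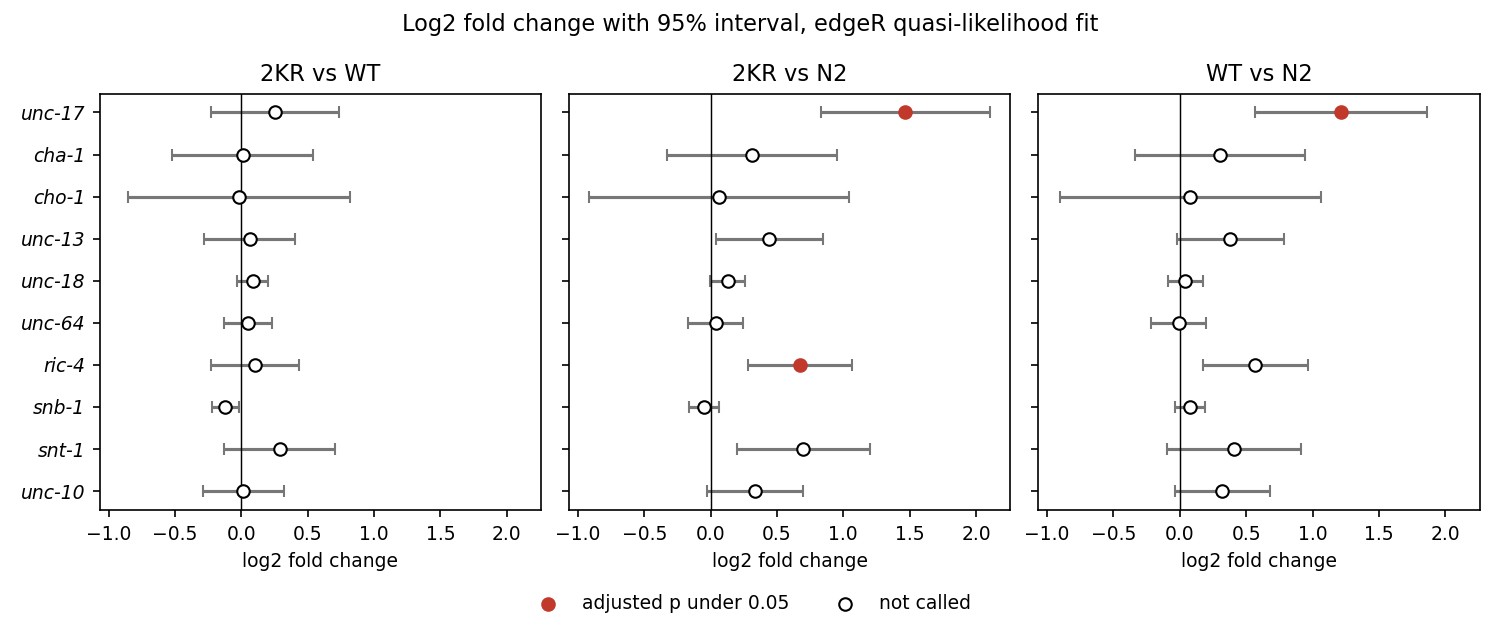
Log2 fold change (points) with 95% interval (bars) of each gene in 2KR against WT, 2KR against N2 and WT against N2, from the edgeR fit; filled points passed at an adjusted p under 0.05. Filled are unc-17 in both comparisons with N2 and ric-4 in 2KR against N2.

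Replicate 1 was the lowest library of its group for 6 of the 10 genes in 2KR, 6 in WT and 7 in N2. The shares of all genes tested were 35.9%, 38% and 50.5% in the same order. Replicate 1 was the lowest in 2KR, in WT and in N2 for cha-1, unc-13 and ric-4, which is 3 of 10 genes, against 13.6% of all genes tested. For unc-17 it was the lowest in no group, and for snb-1 it was the highest in 2KR and in WT. For snt-1 it was lowest in 2KR and in WT. The shortfall was large for unc-13 in 2KR, at 7.77 CPM in replicate 1 against 10.4 and 11.8 CPM in the others.

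**Figure D5:**
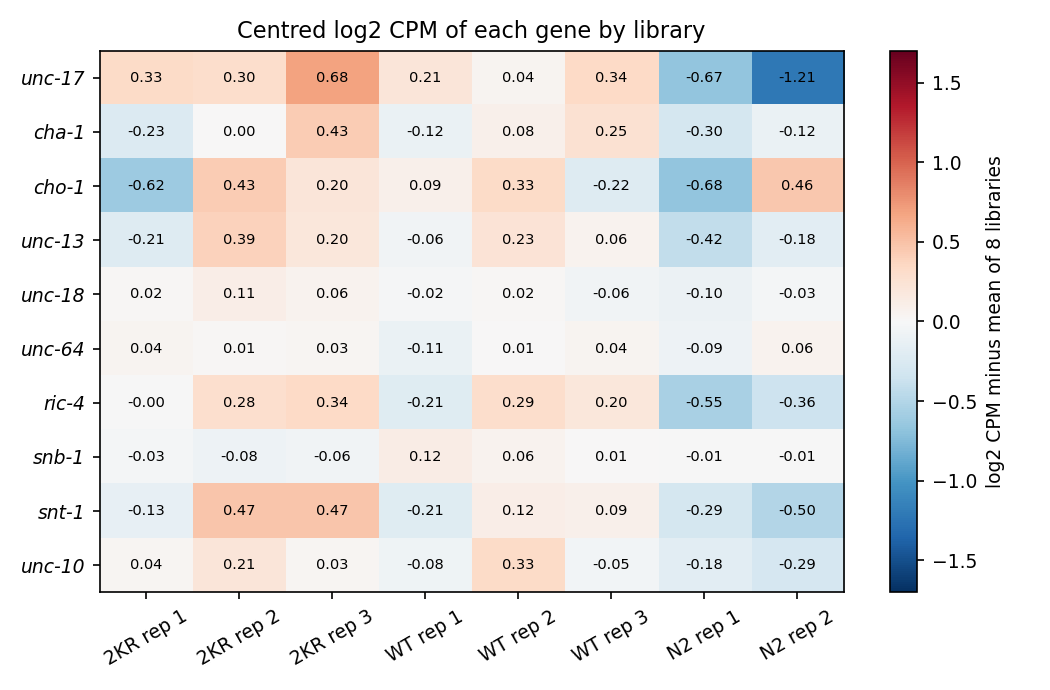
Log2 CPM of each gene minus its mean over the 8 libraries, by library, with 2KR on the left, then WT and N2 (red above the mean, blue below). Both N2 columns are below the mean for unc-17, cha-1, unc-13, ric-4, snt-1 and unc-10. They are near 0 for unc-18, unc-64 and snb-1, and differ in sign for cho-1.

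Other genes of the nervous system, from lists chosen by function, showed a mixture of changes. In the list of release machinery, 44 of 48 genes were tested. In 2KR against N2 2 of them rose and 2 fell, with a median log2 fold change of 0.15, and in WT against N2 0 rose and 2 fell, with a median of 0.12. The shares of all genes tested were 3.76% higher and 4% lower in 2KR, and 1.86% higher and 2.21% lower in WT, so these counts were near the background. In 2KR against WT 0 passed. The largest fall was in snt-2, a synaptotagmin gene related to snt-1, on chromosome III. Its level was 29.3 ± 2.58 CPM over the 3 libraries of 2KR (mean and SD), 31.7 ± 0.524 CPM over the 3 of WT and 61.5 ± 0.933 CPM over the 2 of N2. Its log2 fold change was -1.07 ± 0.08 SE in 2KR (edgeR adjusted p = 5.2e-05) and -0.96 ± 0.08 SE in WT (0.000121), while snt-1 itself leaned the other way.

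The phospholipase C gene egl-8, which promotes release downstream of G proteins, fell by a small amount in both lines, by 0.24 in 2KR (edgeR adjusted p = 0.0375) and by 0.25 in WT (0.0488) on the log2 scale. The rises in 2KR were in syd-1, for a scaffold of presynaptic assembly (1.39 ± 0.33 SE, edgeR adjusted p = 0.0311), and snn-1, the synapsin gene (1.13 ± 0.29, 0.0422). In WT these had 0.92 ± 0.34 and 1.03 ± 0.29 and did not pass.

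Among vesicle recycling genes 17 of 18 were tested, and 2 rose in 2KR against N2. They were unc-41, the stonin gene of vesicle endocytosis (log2 fold change 0.93 ± 0.24 SE, edgeR adjusted p = 0.0443), and vha-5, a proton pump subunit gene known for its role in the worm's epidermis (0.32 ± 0.07, 0.0271). Of all genes tested, 3.76% rose in this comparison. In WT against N2 and in 2KR against WT 0 of these passed. The median log2 fold change was -0.08 in 2KR and -0.01 in WT against N2, so this list did not lean upward as the 10 genes did. In 2KR against N2 the log2 fold change was positive for 6 of its 17 tested genes. It was positive for 30 of 44 genes of release machinery and 23 of 31 of acetylcholine reception and breakdown. For other transmitters it was positive in 10 of 17, and for pan-neuronal and dense core vesicle genes in 24 of 28. An upward lean was thus not particular to the 10 genes.

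On the receiving side, 31 of 40 genes of acetylcholine reception and breakdown were tested, and 1 fell, in both lines against N2. This was acr-20, an acetylcholine receptor subunit gene on chromosome II. It had 12, 12 and 9 counts in 2KR libraries, 13, 10 and 3 in WT libraries and 68 and 76 in N2 libraries, so that N2 stood far above both lines. The log2 fold change was -3.10 ± 0.36 SE in 2KR and -3.37 ± 0.38 SE in WT (edgeR adjusted p = 0.00111 and 0.00109). No gene of this list rose in any of the 3 comparisons, and 4% of all genes tested fell in 2KR and 2.21% in WT. The median of the list was 0.32 in 2KR and 0.09 in WT.

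Of 17 tested genes of other transmitters, 1 rose in 2KR against N2, snf-11, for a GABA transporter (log2 fold change 0.98 ± 0.26 SE, edgeR adjusted p = 0.0481), and 0 passed in WT. Of 28 tested pan-neuronal and dense core vesicle genes, 2 rose in 2KR and 1 in WT, and 0 fell. They were the tubulin genes of touch receptor neurons, mec-12 in 2KR (0.80 ± 0.13 SE, edgeR adjusted p = 0.00564) and in WT (0.58 ± 0.13, 0.0334), and mec-7 in 2KR (0.77 ± 0.15, 0.0144). The median log2 fold change was 0.16 in 2KR and 0.06 in WT for the first list, and 0.28 and 0.19 for the second. In 2KR against WT 0 genes of either list passed. Against 3.76% of all genes tested that rose in 2KR and 1.86% in WT, these counts are small and near the background.

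Marker levels of other tissues moved beside these results, and their part in them was not tested. Summed over the pharynx list, of which 8 of 9 genes were in the files, the level was 56.0 to 107 CPM in 2KR, 55.8 to 94.1 CPM in WT and 41.4 to 55.4 CPM in N2. The list did not move as a whole. Of its 6 tested genes, 4 had a positive log2 fold change against N2 in each line and 2 a negative one. The means of myo-1 were 25.3 CPM in 2KR, 23.5 CPM in WT and 12.2 CPM in N2. Those of pha-4 were 4.87, 4.84 and 6.25 CPM in the same order. The sum over 11 hypodermis markers, rol-6 among them, was 1360 to 1469 CPM in 2KR, 1148 to 1270 CPM in WT and 1135 to 1192 CPM in N2. To this sum rol-6 gave means of 146 CPM in 2KR, 65.9 CPM in WT and 0.114 CPM in N2. The means of col-19 were 1061, 934 and 950 CPM in the same order. Against N2, 8 of the 11 had a positive log2 fold change in 2KR and 3 a negative one. In WT 7 were positive and 4 negative, with rol-6 among the positive ones in both lines. Over 14 sperm markers it was 13.7 to 22.2 CPM in 2KR, 13.1 to 31.4 CPM in WT and 22.4 to 30.5 CPM in N2. Over 13 intestine markers the sum was 45905 to 47683 CPM in 2KR, 41366 to 44733 CPM in WT and 45697 to 48229 CPM in N2. Most of the intestine sum came from the yolk genes vit-2 and vit-6, with means of 21099 and 23336 CPM in 2KR. Their means were 19620.5 and 21904 CPM in WT, and 21820 and 23328 CPM in N2. Of the 13 intestine markers, 11 had a positive log2 fold change against N2 in 2KR and 8 in WT. Germline and oocyte markers, 15 genes, summed to 9526 to 10660.5 CPM in 2KR, 10135 to 11044 CPM in WT and 10661 to 10815 CPM in N2. Against N2, 4 of the intestine markers rose in 2KR and 2 in WT, and 1 germline marker, syp-1, fell in 2KR. Of the hypodermis markers, rol-6, which the arrays carry, rose in both lines, and dpy-13, a cuticle collagen gene, rose in 2KR; without rol-6, 0 of them passed in WT. Over all genes tested, 3.76% rose and 4% fell in 2KR, and 1.86% rose in WT. The sums of body wall muscle, embryo and glia markers overlapped between each line and N2. Of 11 muscle markers 10 had a positive log2 fold change against N2 in each line, and 0 passed. Of 15 germline and oocyte markers, 14 had a negative log2 fold change against N2 in 2KR and 10 in WT. Of 13 tested sperm markers, 11 were negative in 2KR and 10 in WT. Of all genes tested, 51.1% had a positive log2 fold change in 2KR and 51.6% in WT.

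By the profile over the 8 libraries, the tested genes most like the median of the 10 were kin-1, rsbp-1, acp-6, moc-2 and slc-17.1. Likeness was the root mean square difference of centred log2 CPM, which was 0.0433 for kin-1 and 0.0602 for slc-17.1, among 1024 genes that varied at least as much as the median profile. kin-1 encodes the catalytic subunit of protein kinase A and rsbp-1 a partner of RGS proteins. The profile itself ran from -0.30 in N2 replicate 1 to 0.24 in 2KR replicate 2.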

How the data were processed

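Per the submitters' processing notes, the authors used Trimmomatic 0.32, TopHat2 2.1.0 and DESeq2 1.14.1. No source used here gives the genome build, annotation, counting program or use of strand. Each deposited file held 1 library, and its raw counts were used here as the authors made them. Per the file headers it also held CPM scaled by the authors, which was not used.

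Counts of the 8 libraries were joined by identifier, filtered with filterByExpr and scaled by TMM, and 14361 genes were fitted with a term per group (R 4.3.3, edgeR 4.0.16, limma 3.58.1). The quasi-likelihood test called a gene where its p, adjusted over every gene tested by the method of Benjamini and Hochberg, was under 0.05. DESeq2 1.42.0, RLE scaling, no filter, fits of only the groups compared, blocks and leaving out each library were alternatives. The fit was tested on simulated data. Intervals are 95%. Log2 profiles used a prior count of 2. Exon lengths and positions are from Ensembl 115 for WBcel235, which matched 98.7% of identifiers, through Python 3.11.15, pandas 2.3.3, NumPy 2.4.6 and matplotlib 3.10.9.

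The 10 genes and the lists were chosen with earlier results of these data known. From each list the text names up to 4 called genes with the smallest p. It also names the 5 genes with the most similar profile among those whose average log2 CPM reached 2. The replicate numbers pair 2KR and WT, whose deviations from group means correlated across genes at 0.413, 0.398 and 0.296 for replicates 1, 2 and 3. For N2, replicate 2 has the number of one pair and the header code of another.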

Additional observations from a re-analysis of the deposited data

How the results depend on the processing

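Counts per library were 11 to 57 for unc-17, 20 to 45 for cha-1 and 10 to 30 for cho-1, which limits the precision of their folds. Members called in 2KR against WT numbered 0 under all 14 alternatives. In WT against N2, where 1 was called, 0 were called with DESeq2 or with only the groups compared, 2 with the replicate block by label number or by header code, and 0 to 1 without single libraries. In 2KR against N2 the count was 0 to 4 without single libraries, against 2. The replicate block by label number added ric-4 in WT (edgeR adjusted p = 0.0249) and unc-13 in 2KR (0.0367), and that by header code added ric-4 in WT (0.0218) and snt-1 in 2KR (0.0464). Without the filter snt-1 passed in 2KR (0.0487).

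Over all genes, 35 were called in 2KR against WT, and 99 without the filter, 97 with DESeq2, 21 with only these groups, 221 and 319 with the replicate block by label number and by header code, and 7 to 125 without single libraries. In WT against N2 there were 584, and 911 without the filter, 1794 and 1455 with the blocks, and 100 to 610 without single libraries. In 2KR against N2 there were 1114, and 2695 and 2457 with the blocks, and 165 to 1370 without single libraries.

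Signs turned only in comparisons in which the gene passed no test. In WT against N2, unc-64 had a log2 fold change of 0.0041 without the filter, and cho-1 had -0.094 with the block by header code, as it had -0.12 in 2KR against N2. Without single libraries, cho-1 ran from -0.41 to 0.85 in WT and -0.42 to 0.83 in 2KR against N2, and unc-64 from -0.078 to 0.068 in WT and -0.023 to 0.12 in 2KR. In 2KR against WT, cha-1 ran from -0.21 to 0.17, cho-1 from -0.26 to 0.27, unc-13 from -0.077 to 0.23, ric-4 from -0.032 to 0.22 and unc-10 from -0.058 to 0.16. The cause was not tested.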
